A study of Saccharomyces cerevisiae S288C with 4 samples.

Results

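The vacuolar proteases and their inhibitor are 8 yeast genes: *PEP4*, *PRB1*, *PRC1*, *LAP4*, *APE3*, *CPS1* and *DAP2*, which encode proteases and peptidases, and *PBI2*, which encodes an inhibitor. They were chosen by name, with earlier results of these data known. All 8 were found among the 6396 genes of the table, 7 by symbol and *LAP4* under its other name *APE1*, and all 8 had enough reads to be tested. The RNA came from a haploid *MATa* strain that lacks *THO2* (FY254, *tho2Δ::KanMX4*), a component of the THO complex, and from the WT strain BY4741. Both strains carry *ura3Δ0*, *leu2Δ0*, *his3Δ1* and *met15Δ0*, and both were grown in the rich medium YPD at 30 °C to mid-log phase. Total RNA was sequenced from 2 *tho2Δ* libraries and 2 WT libraries, which the labels number as replicates 3 and 4, and the question was how the loss of *THO2* changes transcript levels. Each genotype is 1 strain, and whether the duplicates are separate cultures is not stated, so p-values reflect the spread between these libraries alone, which may be technical.

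The vacuole is the yeast counterpart of the lysosome, where proteins delivered by endocytosis, autophagy and the secretory route are broken down. Most of its proteases are made as inactive precursors: proteinase A (*PEP4*) acts at the head of the cascade, and proteinase B (*PRB1*) helps to complete the maturation of the others. Soluble inhibitors in the cytosol bind the mature enzymes, and many of these genes are known to be induced when cells leave growth on glucose or run short of nitrogen.

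The genes lie on 8 different chromosomes of build R64, overlap no annotated gene and have no near-identical copy elsewhere in the genome. *PRB1* lies on chromosome V from 40046 to 41953, *PEP4* on XVI from 259714 to 260931, *LAP4* on XI from 246138 to 247682 and *DAP2* on VIII from 164978 to 167434, all on the minus strand. On the plus strand, *PRC1* lies on XIII from 861922 to 863520, *APE3* on II from 774700 to 776313, *CPS1* on X from 97737 to 99467 and *PBI2* on XIV from 605384 to 605611. For each of them, the stretch of RefSeq sequence (R64) that lies 400 to 101 bases before the start codon was searched, leaving out the 100 bases next to it. The letters searched on both strands were AGGGG (the stress response element bound by Msn2 and Msn4), AGGGAT (the core of the element bound by Gis1) and GATAAG (bound by the GATA factors Gln3 and Gat1). The stretches of 4 genes are shown because they bracket the range of behavior below: *PRB1*, the 1 gene that passed the test, *PEP4*, the next largest change, *CPS1*, the only negative change, and the inhibitor gene *PBI2*. They are chrV:42054-42353 for *PRB1* and chrXVI:261032-261331 for *PEP4*, both on the minus strand, and chrX:97337-97636 for *CPS1* and chrXIV:604984-605283 for *PBI2*, both on the plus strand. Each is written 5′ to 3′ on the strand of the gene, and capitals mark AGGGG and GATAAG or their reverse complements.
PRB1: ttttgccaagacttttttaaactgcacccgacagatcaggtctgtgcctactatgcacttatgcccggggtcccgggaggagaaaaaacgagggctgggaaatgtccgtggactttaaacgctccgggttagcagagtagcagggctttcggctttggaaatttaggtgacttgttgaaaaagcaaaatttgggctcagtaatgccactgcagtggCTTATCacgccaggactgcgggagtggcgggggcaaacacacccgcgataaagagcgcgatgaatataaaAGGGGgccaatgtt
PEP4: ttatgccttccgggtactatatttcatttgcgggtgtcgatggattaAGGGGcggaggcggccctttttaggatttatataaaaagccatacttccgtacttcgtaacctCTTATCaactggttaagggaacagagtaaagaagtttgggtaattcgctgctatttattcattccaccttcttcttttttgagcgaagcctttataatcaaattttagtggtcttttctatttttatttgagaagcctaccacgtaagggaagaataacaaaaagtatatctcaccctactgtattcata
CPS1: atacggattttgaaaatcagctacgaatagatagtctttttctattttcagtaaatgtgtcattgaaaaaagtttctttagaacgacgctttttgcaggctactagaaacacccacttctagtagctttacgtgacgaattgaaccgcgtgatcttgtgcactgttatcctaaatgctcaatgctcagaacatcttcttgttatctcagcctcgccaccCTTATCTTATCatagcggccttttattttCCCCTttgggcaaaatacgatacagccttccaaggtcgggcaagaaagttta
PBI2: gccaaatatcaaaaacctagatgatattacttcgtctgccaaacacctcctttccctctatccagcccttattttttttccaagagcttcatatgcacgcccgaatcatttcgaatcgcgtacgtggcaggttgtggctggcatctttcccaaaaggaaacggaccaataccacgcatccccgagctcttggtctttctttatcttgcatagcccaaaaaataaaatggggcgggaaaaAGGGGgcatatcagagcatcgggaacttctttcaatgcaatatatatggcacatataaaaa

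AGGGG was present in the stretches of 7 of the 8 genes, all but *DAP2*, against 23.5% of the 6020 stretches of the same length and place before protein-coding genes. In *PRB1* it began 114 bases before the start codon, and in *PBI2* 161 bases before it. GATAAG was present in 5 of the 8, namely *PEP4*, *PRB1*, *PRC1*, *APE3* and *CPS1*, against 13.9% of all stretches. *CPS1* held it at 2 places that overlap by 1 base, and *PBI2* had no match to it. AGGGAT was in 0 of the 8, against 9.72% of all stretches. The stretches of *DAP2*, *APE3* and *LAP4* run into the neighboring gene, whose nearest ends lie 242, 343 and 379 bases away. These matches describe the letters in a window and are not evidence of binding.

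The libraries held 31417222 to 36989697 counts. *THO2* had 1 count in each *tho2Δ* library, against 4011 and 2457 counts in the WT libraries, and *URA3* and *MET17* (also called *MET15*) had 0 counts in all 4. *HIS3*, for which both strains carry *his3Δ1*, had 586 and 674 counts in *tho2Δ* replicates 3 and 4, against 841 and 981 in WT. Which part of the gene these reads cover was not tested. *LEU2*, which both strains should lack, had 511 and 4276 counts in *tho2Δ* replicates 3 and 4, against 0 and 2512 counts in WT replicates 3 and 4, so 3 of the 4 libraries go against the stated genotype at this gene, and the part of this in the results was not tested. A count of 0 allows up to 0.0892 CPM (read counts relative to the library total) in WT replicate 3. The **a**-cell receptor gene *STE2* had 19514 to 42805 counts per library, and the α-cell receptor gene *STE3* had 105 to 149. The WT libraries also differed from each other more than the *tho2Δ* libraries did, with a median absolute log2 difference per gene of 0.0919 between the *tho2Δ* libraries and 0.244 between the WT libraries. In the fits without 1 library, the lone library of a strain was assumed to vary like the other pair, which is the close *tho2Δ* pair when a WT library is left out.

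*PRB1* rose in *tho2Δ*, and it was the only gene of the 8 that passed the test. Its subtilisin-like serine protease, proteinase B, had 12316 and 15091 read counts in *tho2Δ* replicates 3 and 4, against 3731 and 2968 in WT replicates 3 and 4. After scaling for library size and composition with TMM (trimmed mean of M-values), this was 333 and 348 CPM in *tho2Δ*, against 111 and 127 CPM in WT. The lower *tho2Δ* library was thus well above the higher WT library, and each pair of duplicates lay close together. The difference was 2.87-fold, or 1.52 on the log2 scale (SE 0.12), with an adjusted p of 0.00185 in the quasi-likelihood test of edgeR, Benjamini-Hochberg adjusted over the 5890 genes tested. It passed in each of the 13 other settings tried, with log2 fold changes from 1.40 to 1.98 and adjusted p-values from 7.1e-17 to 0.0219. Over all genes tested, 1110 rose (18.8%) and 1127 fell (19.1%) in the same fit, so 1 of 8 risen and 0 of 8 fallen is not above the background for either direction. At an unadjusted p under 0.05, 4 of the 8 genes were higher in *tho2Δ* (*PEP4*, *PRB1*, *DAP2* and *PBI2*), against 25.4% of all genes, and 1 was lower (*CPS1*), against 24.7%. DESeq2, library totals and limma on log2(TPM + 1) also gave 0 of the 8 fallen. Over all genes, 1221 of 5890, 303 of 5890 and 348 of 5755 fell in these settings, in that order.

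**Figure D1:**
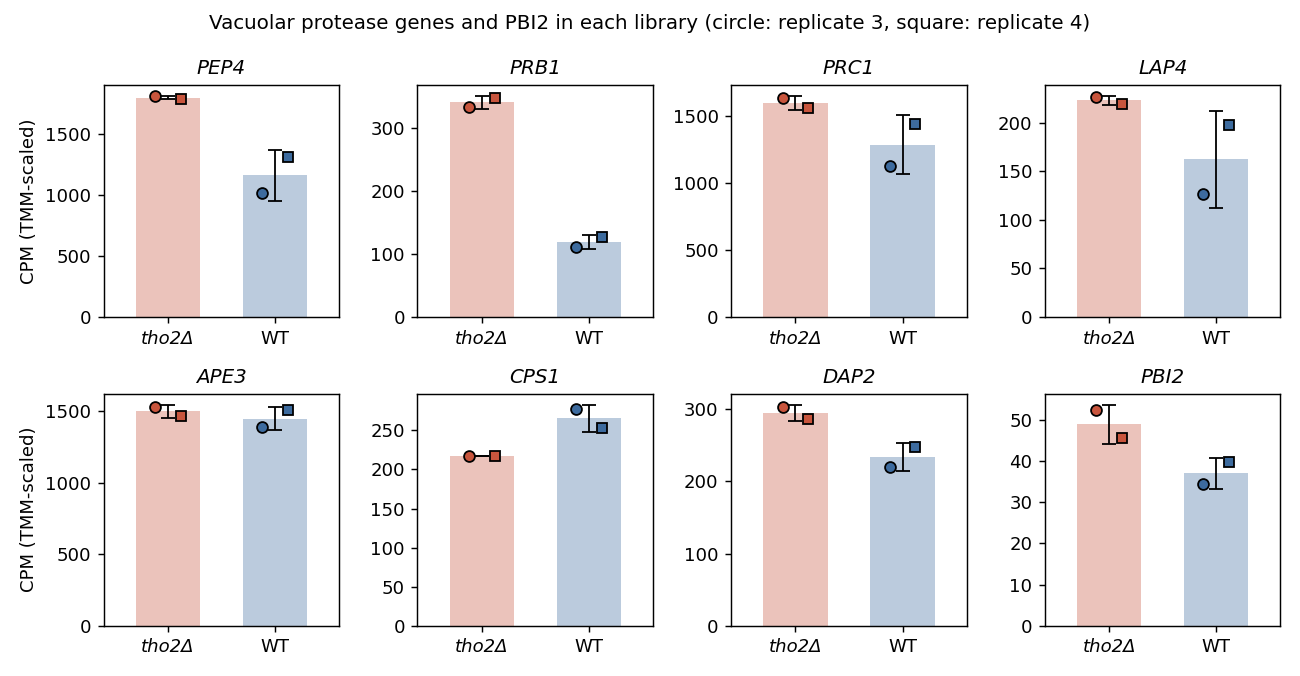
TMM-scaled CPM of the 8 genes in each library, with *tho2Δ* on the left and WT on the right of each panel; bars are means, error bars are SD (n = 2), circles are replicate 3 and squares replicate 4, and every y axis starts at 0. *PRB1* averaged 341 CPM in *tho2Δ* and 119 CPM in WT, while the WT duplicates of *LAP4*, *PEP4* and *PRC1* lie far apart.

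*PEP4*, the aspartic protease that starts the activation cascade, had the highest mean TPM of the 8 genes in each strain, although in WT replicate 3 *APE3* was above it, with 743 TPM. In TPM (transcripts relative to the library total, corrected for gene length), it reached 1460 and 1465 in *tho2Δ* replicates 3 and 4, against 720 and 697 in WT. Ordered by mean TPM among 5980 protein-coding genes, it stood at place 48 in *tho2Δ* and at place 184 in WT. On the TMM scale the *tho2Δ* libraries had 1812 and 1792 CPM, against 1016 and 1311 CPM in the WT libraries. The groups did not overlap on either scale, but the WT duplicates were 0.37 apart on the log2 CPM scale, against a fold change of 0.63 (SE 0.21), and the adjusted p was 0.0679 in the edgeR test. The call therefore depended on the setting: *PEP4* passed in 7 of the 13 others, among them DESeq2 (log2 fold change 0.61, adjusted p = 0.00622), library totals (1.11, adjusted p = 0.00412) and each fit without a WT library (0.43 without WT replicate 3 and 0.82 without WT replicate 4). It did not pass without *tho2Δ* replicate 3 (adjusted p = 0.436) or *tho2Δ* replicate 4 (adjusted p = 0.428).

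The serine carboxypeptidase gene *PRC1*, which encodes carboxypeptidase Y, had 1638 and 1567 CPM in *tho2Δ* replicates 3 and 4, against 1131 and 1443 CPM in WT. Its 4 values did not overlap between the strains, but the difference of 0.32 on the log2 scale (SE 0.21, adjusted p = 0.283 in the edgeR test) was smaller than the gap of 0.35 between the WT duplicates. *LAP4*, the aminopeptidase I that reaches the vacuole from the cytosol by the cytoplasm-to-vacuole targeting (Cvt) route, had 226 and 219 CPM in *tho2Δ*, against 127 and 197 CPM in WT. The WT duplicates of *LAP4* differed by 0.64 on the log2 scale, the widest gap of the 8 genes and wider than its fold change of 0.46 (SE 0.22, adjusted p = 0.151). Leaving out WT replicate 3 left log2 fold changes of 0.13 for *PRC1* and 0.15 for *LAP4*, whereas without WT replicate 4 they were 0.49 and 0.81 and both passed. Without *tho2Δ* replicate 3 or *tho2Δ* replicate 4, the adjusted p-values were 0.746 and 0.680 for *PRC1* and 0.405 and 0.366 for *LAP4*.

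*DAP2*, which encodes dipeptidyl aminopeptidase B, an integral protein of the vacuolar membrane, had 303 and 287 CPM in *tho2Δ* replicates 3 and 4, against 221 and 247 CPM in WT. All 4 values were ordered by strain, and the log2 fold change was 0.33 (SE 0.12, adjusted p = 0.0804 in the edgeR test). It passed without WT replicate 3 (0.23, adjusted p = 0.0362) and without WT replicate 4 (0.41, adjusted p = 0.00485), but not without *tho2Δ* replicate 3 (adjusted p = 0.495) or *tho2Δ* replicate 4 (adjusted p = 0.386).

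*APE3* and *CPS1* had the lowest fold changes of the 8 genes. *APE3*, which encodes the soluble aminopeptidase Y, had 1532 and 1466 CPM in *tho2Δ* replicates 3 and 4, against 1390 and 1508 CPM in WT, so the strains overlapped. Its log2 fold change was 0.049 (SE 0.19, adjusted p = 0.855 in the edgeR test), it passed in 0 of the 13 other settings, and without WT replicate 3 it was -0.033. *CPS1*, which encodes carboxypeptidase S, a membrane-anchored precursor that is sorted into the vacuole through multivesicular bodies, had 217 CPM in each *tho2Δ* library, against 278 and 253 CPM in WT replicates 3 and 4. This was the only one of the 8 with both *tho2Δ* libraries below both WT libraries on the CPM scale, and its fold change of -0.29 on the log2 scale (SE 0.11) had an adjusted p of 0.0945. It passed as lower without WT replicate 3 (-0.25, adjusted p = 0.0235) and without WT replicate 4 (-0.36, adjusted p = 0.0057), but not without *tho2Δ* replicate 3 (adjusted p = 0.502) or *tho2Δ* replicate 4 (adjusted p = 0.494). In TPM, the *CPS1* groups overlapped, with 123 and 125 TPM in *tho2Δ*, against 138 and 94.7 TPM in WT, and with library totals its log2 fold change was 0.14.

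*PBI2*, the proteinase B inhibitor of 75 codons, did not pass the test. It had 52.3 and 45.6 CPM in *tho2Δ* replicates 3 and 4, against 34.5 and 39.8 CPM in WT, and 225 and 199 TPM in *tho2Δ*, against 130 and 113 TPM in WT. The strains did not overlap on either scale, and the log2 fold change was 0.40 (SE 0.14, adjusted p = 0.0701 in the edgeR test). It passed without WT replicate 4 (0.50, adjusted p = 0.00961) but in none of the other fits without 1 library, where the adjusted p-values were 0.0521 to 0.459, and the range over the fits without 1 library was 0.27 to 0.50.

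**Figure D2:**
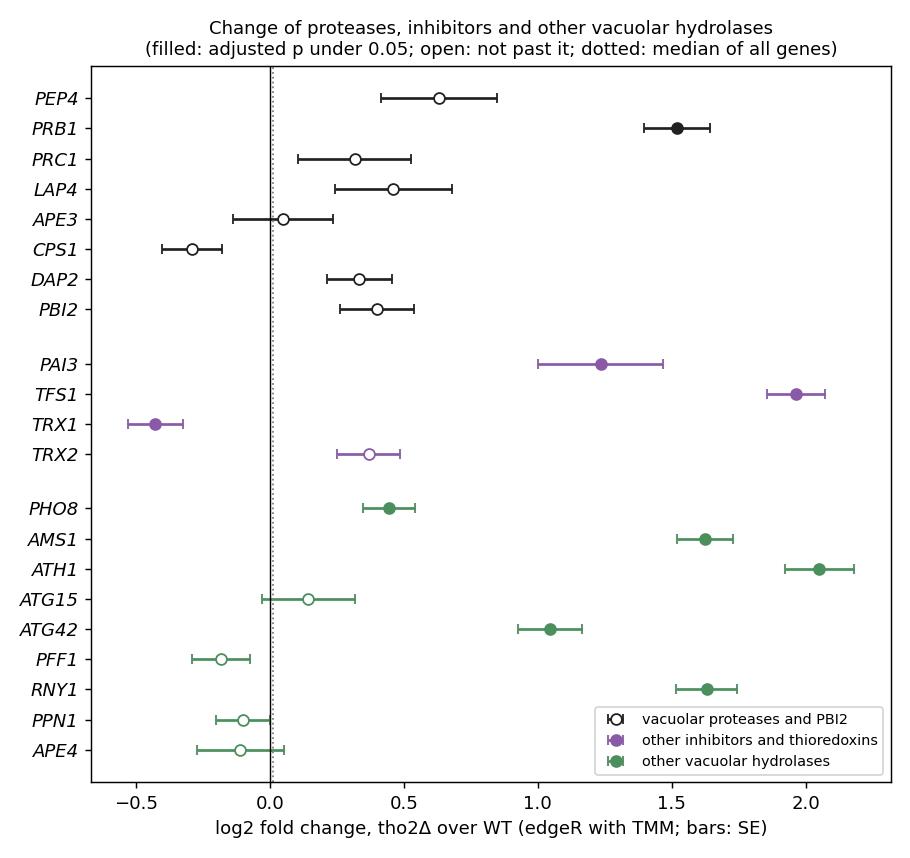
Log2 fold changes, *tho2Δ* over WT, of the 8 genes (black), of the other inhibitors and the thioredoxins (purple) and of other vacuolar hydrolases (green), from edgeR with TMM; horizontal bars are SE, filled symbols have an adjusted p under 0.05, and the dotted line is the median of all genes tested (0.01). Among the 8 genes, *PRB1* at 1.52 is the only filled symbol.

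A ratio of a pair of genes within a library does not depend on how libraries are scaled to each other, and it was computed in TPM for the inhibitor and its target. The ratio of *PBI2* to *PRB1* was 1.31 and 1.10 in *tho2Δ* replicates 3 and 4, against 2.60 and 2.62 in WT replicates 3 and 4. In TPM, which corrects for gene length, *PBI2* was thus above *PRB1* in all 4 libraries, and by less in both *tho2Δ* libraries. In raw counts *PBI2* was below *PRB1* in all 4 libraries, with 1934 against 12316 in *tho2Δ* replicate 3. The order of the 2 genes thus rests on the length correction, and only the change of the ratio between strains is read here. The mean ratio was 1.21 ± 0.153 in *tho2Δ* and 2.61 ± 0.0179 in WT (SD, n = 2 each), a log2 difference of -1.12 that ranged from -1.25 to -0.99 when 1 library was left out. With 2 libraries against 2, the two-sided exact permutation test gave p = 0.333, the smallest p this design allows. The count test gives *PRB1* its own call, but the lower ratio rests on these 4 values alone.

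The inhibitors of the other main proteases, *PAI3* and *TFS1*, passed the test. *PAI3*, the inhibitor of proteinase A, rose by 1.23 on the log2 scale (SE 0.23, adjusted p = 0.0125 in the edgeR test), with 8.77 and 8.23 CPM in *tho2Δ* against 2.97 and 4.31 CPM in WT. *TFS1*, the inhibitor of carboxypeptidase Y, rose by 1.96 (SE 0.11, adjusted p = 0.00108), with 334 and 314 CPM in *tho2Δ* against 83.5 and 82.7 CPM in WT. Both thus had a larger fold change than the protease they bind. The TPM ratio of *TFS1* to *PRC1* was 0.494 and 0.486 in *tho2Δ*, against 0.179 and 0.139 in WT, and that of *PAI3* to *PEP4* was 0.0284 and 0.0270 in *tho2Δ*, against 0.0171 and 0.0193 in WT. These 2 ratios, chosen after the values were seen, were therefore higher in *tho2Δ*, where that of *PBI2* to *PRB1* was lower. *PAI3* no longer passed when *tho2Δ* replicate 3 (adjusted p = 0.117) or *tho2Δ* replicate 4 (adjusted p = 0.0945) was left out, and the *TFS1* call was lost in 0 of the 13 settings.

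**Figure D3:**
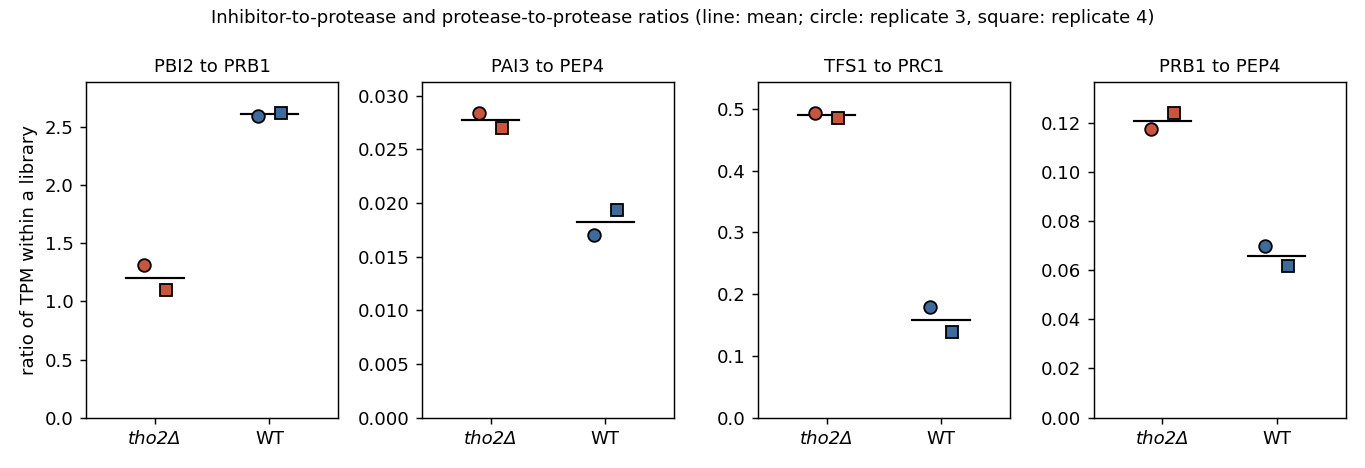
Ratios of TPM within each library for 3 inhibitor and protease pairs and for *PRB1* to *PEP4*, with *tho2Δ* on the left and WT on the right of each panel; circles are replicate 3, squares replicate 4, horizontal lines means (n = 2), and every y axis starts at 0. The *PBI2* to *PRB1* ratio averaged 1.21 in *tho2Δ* and 2.61 in WT, and the other ratios shown were higher in *tho2Δ*. The ratio of *PRC1* to *PEP4*, not shown, was lower in *tho2Δ*, at 0.689 and 0.666 against 0.848 and 0.839 in WT.

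Thioredoxin and the *PBI2* product form a complex that acts in vacuole fusion, and the thioredoxin genes differed in sign. *TRX1* fell by 0.43 on the log2 scale (SE 0.10, adjusted p = 0.0269 in the edgeR test), with 188 and 190 CPM in *tho2Δ* replicates 3 and 4, against 255 and 253 CPM in WT. With library totals its log2 fold change was 0.016, so its direction depended on the scaling, and it did not pass when *tho2Δ* replicate 3 (adjusted p = 0.318) or *tho2Δ* replicate 4 (adjusted p = 0.305) was left out. *TRX2* had 228 and 212 CPM in *tho2Δ*, against 160 and 180 CPM in WT, and a log2 fold change of 0.37 (SE 0.12) with an adjusted p of 0.0573.

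The share that each of the 7 proteases took of their transcripts was also compared within libraries. Their summed TPM was 3956 and 3909 in *tho2Δ* replicates 3 and 4, against 2410 and 2173 in WT replicates 3 and 4. In TPM, 57.7% of all genes also had both *tho2Δ* libraries above both WT libraries. The median log2 fold change of all genes was 0.39 in limma on log2(TPM + 1). *PRB1* took 4.33% and 4.64% of the sum over the 7 proteases in *tho2Δ*, against 2.08% and 1.98% in WT. It thus remained a small part of the protease transcripts in both strains. *PEP4* took 36.9% and 37.5% in *tho2Δ*, against 29.9% and 32.1% in WT. The share of *APE3* was 23.5% and 23.1% in *tho2Δ*, against 30.8% and 27.9% in WT. That of *CPS1* was 3.11% and 3.19% in *tho2Δ*, against 5.74% and 4.36% in WT, so both shares were lower in *tho2Δ* without overlap. A share falls when other genes of the sum rise more. The *APE3* transcript itself had 931 and 905 TPM in *tho2Δ*, against 743 and 605 TPM in WT. *PRC1* took 25.4% and 25.0% in *tho2Δ*, against 25.3% and 26.9% in WT, where the strains overlapped, as they did for *LAP4* and *DAP2*. Set against each of the other 7 genes in turn, the *PRB1* transcript gained 1.84-fold on *PEP4*, 2.04-fold on *LAP4*, 2.18-fold on *PBI2*, 2.28-fold on *DAP2*, 2.29-fold on *PRC1*, 2.77-fold on *APE3* and 3.51-fold on *CPS1*. These folds follow from the values above, since *PRB1* had the largest change of the 8 genes.

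How many of the 8 genes passed depended on how the libraries were scaled. With TMM, the median log2 fold change was 0.37 for the 8 genes, against 0.01 for all genes tested. With library totals, the median of all genes moved to 0.45, and 6 of the 8 genes passed with higher values (all but *APE3* and *CPS1*), against 20.5% of all genes. On log2(TPM + 1) in limma, the median of all genes was 0.39, and the same 6 genes passed, against 20.5% of all genes. Relative to the median of all genes, the median of the 8 genes was 0.36 with TMM, 0.37 with library totals and 0.38 on the TPM scale, but it was 0.17 without WT replicate 3 and 0.49 without WT replicate 4. The small cytoplasmic RNA *SCR1* took 13.7% of the counts in each *tho2Δ* library, against 8.46% and 7.71% in WT replicates 3 and 4, and its part in the scaling was not tested. Among all called genes, 49.6% were higher in *tho2Δ* with TMM and 79.9% with library totals.

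On the CPM scale 6 of the 8 genes had both *tho2Δ* libraries above both WT libraries, against 38.6% of all genes, and 1 had both below, against 36.3%. In TPM, 7 of the 8 were above, against 57.7% of all genes.

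**Figure D4:**
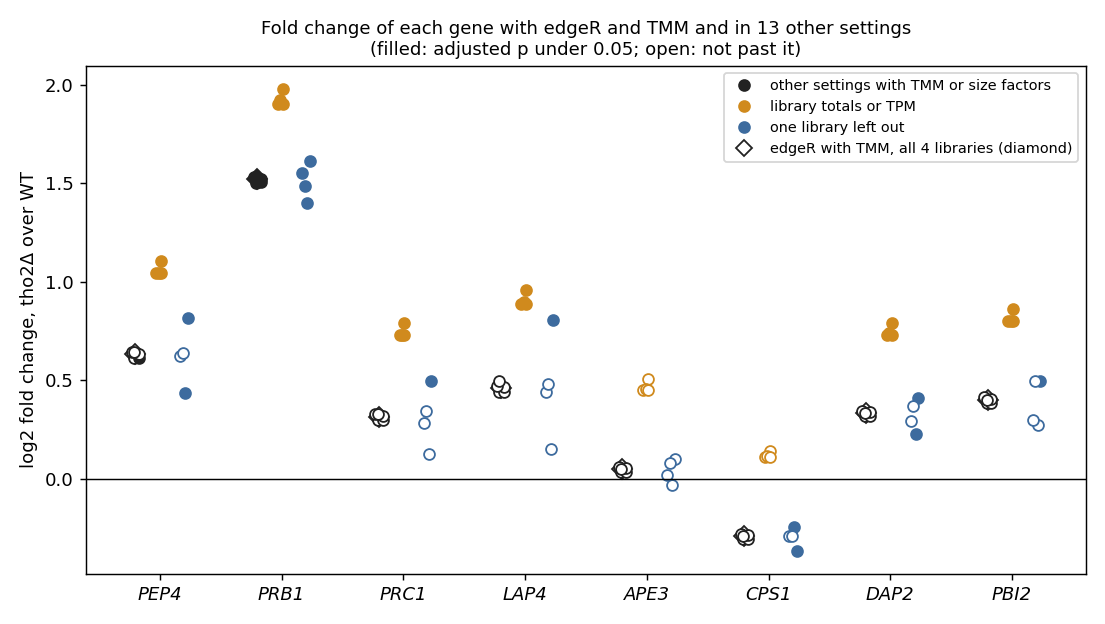
Log2 fold changes, *tho2Δ* over WT, of the 8 genes with edgeR and TMM on all 4 libraries (diamonds), in other settings with TMM or size factors (black), with library totals or on the TPM scale (orange) and with 1 library left out (blue); filled symbols have an adjusted p under 0.05, and points are shifted sideways so that they can be told apart. *PRB1* is filled throughout and lies between 1.40 and 1.98, while *CPS1* lies on both sides of 0.

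Other genes of the vacuolar pathway were described from 10 lists of 139 genes, of which 138 were tested. Of these, 40 rose, 13 fell and 85 did not pass, with a median log2 fold change of 0.15. The counts of each list below stand beside 18.8% of all genes that rose and 19.1% that fell, and nothing is read from them about a list as such. Among the 9 other vacuolar hydrolases, 5 rose and the other 4 did not pass. Those that rose were *ATH1*, the acid trehalase (2.05, adjusted p = 0.00131), *RNY1*, a ribonuclease (1.63), *AMS1*, the α-mannosidase (1.62), *ATG42*, a carboxypeptidase related to *PRC1* (1.05), and *PHO8*, the alkaline phosphatase that *PEP4* matures (0.44). *AMS1* follows the same Cvt route as *LAP4*, and it had 130 and 136 CPM in *tho2Δ*, against 41.5 and 44.7 CPM in WT, with no overlap. The median of the list was 0.44.

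**Figure D5:**
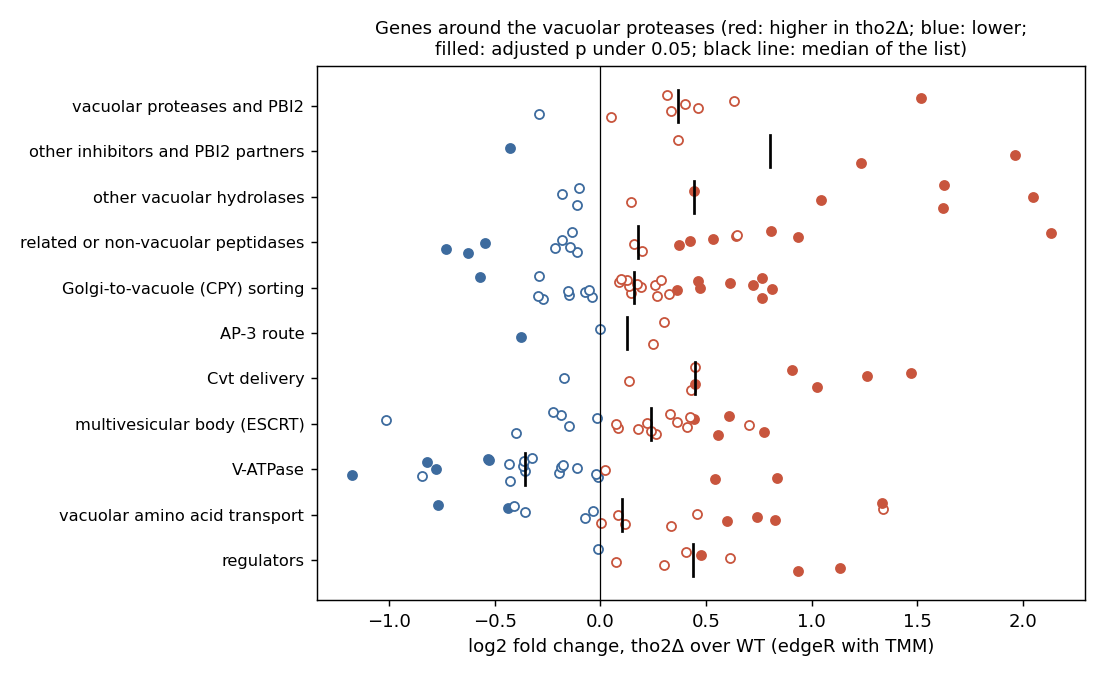
Log2 fold changes, *tho2Δ* over WT, of the 8 genes (top) and of each of 10 lists of related genes; red is above 0, blue below 0, filled symbols have an adjusted p under 0.05 with edgeR and TMM, and black lines are medians. The V-ATPase list has the lowest median, at -0.36, and the 8 genes have a median of 0.37.

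The machinery that carries the proteases to the vacuole was uneven. Of the 9 genes listed for Cvt delivery, the route of *LAP4*, 5 rose and 4 did not pass, with a list median of 0.45. Those that rose were *ATG8*, a ubiquitin-like membrane protein (1.47), *ATG34* (1.26), *ATG19* (1.03), *ATG9* (0.91) and *ATG20* (0.45). *ATG34* and *ATG19* encode cargo receptors, and not every listed gene need act on *LAP4*. *LAP4* itself, the main cargo, had 0.46 and did not pass. Of the 28 genes for sorting from the Golgi to the vacuole, the route of *PRC1* and *PEP4* products, 8 rose and 1 fell, the highest among those named being *VPS17* (0.81), of the retromer, with *VPS8* (0.77), *PEP12* (0.76) and *VPS34* (0.62). *PEP1*, the sorting receptor for carboxypeptidase Y, named here after its values were seen, had -0.27 (SE 0.12, adjusted p = 0.124). *VPS9*, a guanine nucleotide exchange factor, was the 1 gene that fell (-0.57, also named after its values were seen).

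Of the 21 genes of the multivesicular body pathway, which sorts *CPS1*, 4 rose and 17 did not pass. These were *DOA4* (0.77), *VPS36* (0.61), *BRO1* (0.56) and *VPS25* (0.44). Of the 4 genes of the AP-3 adaptor route, *APL6* fell by 0.38 and the other 3 did not pass, but with library totals the log2 fold change of *APL6* was 0.066. Without *tho2Δ* replicate 3 or without *tho2Δ* replicate 4, 10 and 9 of the listed genes rose instead of 40, and 8 rose in both fits: *TFS1*, *AMS1*, *ATH1*, *RNY1*, *YPS6*, *ATG34*, *ATG8* and *YPQ3*. The other listed genes named here as changed did not pass in at least 1 of these fits.

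The proton pump V-ATPase keeps the inside of the vacuole, where the proteases act, at an acid pH. Of its 21 genes, 5 fell and 2 rose with TMM, and the list median was -0.36. Those that fell encode subunits of the pump: *VMA10* (-1.18), *VMA6* (-0.82), *VMA2* (-0.78), *VMA9* (-0.54) and *VMA8* (-0.53), of which *VMA10*, *VMA2* and *VMA9* were named after their values were seen. Those that rose, *RAV2* (0.84) and *RAV1* (0.54), encode factors that assemble it. With library totals and on log2(TPM + 1) in limma, 0 of the 21 fell (2 and 3 at an unadjusted p under 0.05), against 7 in DESeq2. In edgeR with 1 library left out, the list median was -0.41 without WT replicate 3 and -0.34 without WT replicate 4. It was -0.35 without *tho2Δ* replicate 3 and -0.34 without *tho2Δ* replicate 4. The list median was 0.14 with library totals and 0.08 on log2(TPM + 1), below the medians of all genes in those settings. The direction of the list against WT thus depended on the scaling.

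Transporters that move amino acids across the vacuolar membrane gave 4 risen and 2 fallen of 16, with *YPQ3* (1.33), *AVT4* (0.83), *AVT6* (0.74) and *AVT3* (0.60) as the genes that rose, and *YPQ2* (-0.77) and *VBA4* (-0.44), named after their values were seen, as those that fell. Peptidases that are related to the 8 genes or act elsewhere gave 7 risen and 3 fallen of 18. *YPS6*, a yapsin aspartic protease of the cell surface, rose by 2.13, *YPS1*, another yapsin, by 0.64, the pseudogene *YOL153C* by 0.93 and *YSP3*, a subtilisin-like relative of *PRB1*, by 0.81. *MKC7*, another yapsin (-0.55), *DUG1*, which degrades dipeptides (-0.73), and the aminopeptidase gene *AAP1* (-0.63) fell and were named after their values were seen.

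Of the 8 tested genes for factors that act on stress and nitrogen elements, 3 rose and 5 did not pass. *GIS1* rose by 1.14, *GAT1* by 0.93 and *MSN4* by 0.48, with adjusted p-values of 0.00622, 0.0271 and 0.0442, and *RIM15*, a kinase upstream of *GIS1*, had 0.40 (adjusted p = 0.0766). *DAL80*, the ninth gene of the list, had too few reads to be tested. Matches on either strand are marked in the sequences above before *CPS1*, with a log2 fold change of -0.29, and before *PRB1*, with 1.52. Their strands and places differ between these genes, and a link of the letters or of these factors to the fold changes was not tested.

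Of the 16 nearest neighbors of the 8 genes, 15 were tested, 3 rose, 3 fell and 9 did not pass, which is close to the 18.8% and 19.1% of all genes. The divergent neighbor of *CPS1* is *RFA3*, 1207 bases away, which encodes a subunit of replication protein A and fell by 0.52 (adjusted p = 0.0444 in the edgeR test), a call absent with library totals and without either *tho2Δ* library. The divergent neighbor of *PRC1* is *LCB1*, 1030 bases away, a gene of sphingolipid synthesis with a log2 fold change of -0.31 (adjusted p = 0.0736), opposite in sign to that of *PRC1*. Named after their values were seen, the neighbors that rose were *YBR285W* (2.09) and *YBR287W* (0.79), on either side of *APE3*, and *HEF3* (0.79), downstream of *PBI2*. Those that fell beside *RFA3* were *YHI9* (-0.80), upstream of *DAP2*, and *PUB1* (-0.53), upstream of *PBI2*. *APE3*, between a pair of genes that rose, itself had 0.049.

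Over the 4 libraries, the pattern of *PBI2* was compared with that of 5589 genes by the Euclidean distance of centered log2 CPM values. The closest were *UFD1* (distance 0.041), *PAU17* (0.041), *CUZ1* (0.062), *CSS3* (0.065) and *LCD1* (0.067), while *PRB1*, the gene of its target protease, was at 1.14. For *PEP4* the closest were *YAP1801* (0.021), *CUB1* (0.027), *HOR7* (0.054), *GSY1* (0.062) and *AIM41* (0.067), and *PRB1* was at 0.89. For *LAP4* they were *YNL190W* (0.066), *COX6* (0.068), *COQ9* (0.079), *FRE4* (0.079) and *INH1* (0.091), with *PRB1* at 1.08. With 4 libraries these distances describe likeness in these samples and nothing more.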

How the data were processed

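Total RNA of 2 *tho2Δ* and 2 WT libraries was sequenced. The authors deposited 1 table that holds, per gene, raw read counts, FPKM and TPM. The submitters' processing notes name build R64, HISAT2 2.1.0, StringTie 1.3.4d, bcl2fastq 2.20.0 and Trimmomatic, without roles. In the sources used here, the strand setting was not given. The labels name an RNeasy kit for the extraction, and the methods of the study name hot phenol. The authors' counts were used as deposited, and the authors' TPM values, which are scaled by length, were used within libraries and for alternatives. The 4 columns of FPKM that the authors deposited were not used. Of the lines of this table, 3 were empty and were left out.

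Counts were tested with edgeR 4.0.16 in R 4.3.3 (quasi-likelihood, TMM, edgeR's expression filter, genotype alone), with Benjamini-Hochberg adjustment over 5890 genes and a threshold of 0.05. The SE was taken from the test, as the size of the log2 fold change over the root of F. The common biological coefficient of variation was 0.158. The scripts were tested on simulated data. Near-identical copies were searched with BLAST 2.17.0 (identity of 95% or more over 50% or more of the gene). Alternatives were RLE factors, library totals, DESeq2 1.42.0, limma 3.58.1 with a pseudocount of 1 or 0.1 on log2 TPM, for genes whose mean TPM reached 1 and without this filter, no filter on counts, a mean count of at least 50, a replicate block and each library left out.

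The members and lists were chosen with earlier results of these data known. Genes named are the 8 members, *PAI3*, *TFS1*, *TRX1*, *TRX2*, *THO2*, in each list the 4 or fewer genes of smallest p, all called members of lists with at most 5, divergent neighbors, and the 5 genes most alike *PBI2*, *PEP4* and *LAP4* among those with a mean count of at least 50. Of the 6396 genes, 5995 were matched to the annotation by locus tag. Within each strain, gene counts of the duplicates differed beyond sampling noise, so each library was counted once. With expected counts taken from library totals, the median chi-square was 2.60 in *tho2Δ* and 45.8 in WT, against 0.455. The TMM factors were 1.00 and 0.723 in WT replicates 3 and 4, against 1.18 and 1.17 in *tho2Δ*. The WT value therefore also holds a shift between libraries that TMM removes. Tables and plots used Python 3.11.15 with numpy 2.4.6, pandas 2.3.3, scipy 1.17.1 and matplotlib 3.10.9.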

Additional observations from a re-analysis of the deposited data

How the results depend on the processing

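*PRB1* passed in all 13 other settings, and the *PBI2* to *PRB1* ratio kept its sign in those run for it (also from reads per kilobase). Of the 8 genes, 6 rose with library totals and for limma on log2(TPM + 1), on log2(TPM + 0.1) and without the TPM filter. Over all genes, 1207 of 5890, 1179 of 5755, 1074 of 5755 and 1060 of 6325 rose in those 4 settings, in that order. With DESeq2, 2 of the 8 rose, against 1103 of 5890 genes. In each of these settings 0 of the 8 fell. The median of the 8 genes above that of all genes was 0.17 to 0.49 with 1 library left out. In those 4 settings, in that order, the log2 fold changes that newly passed were 1.11, 1.04, 1.05 and 1.04 for *PEP4* (0.61 with DESeq2), 0.79, 0.73, 0.73 and 0.73 for *PRC1*, 0.96, 0.89, 0.90 and 0.89 for *LAP4*, 0.79, 0.73, 0.74 and 0.73 for *DAP2*, and 0.86, 0.80, 0.80 and 0.80 for *PBI2*, and *CPS1* turned to 0.14, 0.11, 0.11 and 0.11. With 1 library left out, the range was 0.43 to 0.82 for *PEP4*, 0.13 to 0.49 for *PRC1*, 0.15 to 0.81 for *LAP4*, -0.033 to 0.10 for *APE3* (negative without WT replicate 3), -0.36 to -0.25 for *CPS1*, 0.23 to 0.41 for *DAP2* and 0.27 to 0.50 for *PBI2*. Causes were not tested.

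Over all genes, 307 to 1790 rose and 200 to 1847 fell with 1 library left out, and 303, 348, 335 and 318 fell in the same 4 settings. Of the listed genes, 9 to 57 rose and 0 to 30 fell with 1 library left out, and 0 fell in each of the 4 settings. Signs turned for *TRX1* (0.016 with library totals), *APL6* (0.066, 0.023, 0.024 and 0.023), *LCB1* (0.13, 0.091, 0.093 and 0.091) and *APM3*, of the AP-3 adaptor (0.43, 0.39, 0.40 and 0.39, and 0.00016 without a filter, 0.0083 at a mean count of at least 50, and -0.088 to 0.053 with 1 library left out, positive without WT replicate 3 or *tho2Δ* replicate 4). With 1 library left out, the difference in share ranged from -0.18 to 0.69 percentage points for *LAP4* and from -0.20 to 0.014 for *DAP2*, with the sign turned without WT replicate 3 in both. With the replicate number as a block, 1 of the 8 genes rose, as without it, and *PRB1* had 1.52, while 8 listed genes fell, against 13 without the block. Across genes, the differences between replicates 3 and 4 of the strains had a correlation of 0.00146, so the numbers were not taken to pair the libraries. Each of the 8 genes had at least 931 counts in every library, so the precision is set mainly by the 2 libraries per strain.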
